A study of Mus musculus with 15 samples.

Results

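A set of 10 genes used to describe how macrophages are polarized was followed across 15 mouse mammary tumours: Mrc1, Msr1, Retnla, Arg1, Chil3, Cd163, Trem2, Nos2, Folr2 and Mgl2. They were chosen by name, as the rows of the deposited expression table whose symbols equal these names. All 10 were present among the 17271 genes of the table. That match used no measured value, but the 10 genes were chosen with earlier results of these data known.

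Macrophages change their transcription with the signals around them. Interleukin 4 and interleukin 13, acting through the receptor chain Il4ra and the transcription factor Stat6, induce a programme called alternative activation, for which Retnla, Chil3, Arg1, Mrc1 and Mgl2 are standard mouse markers. Interferon gamma and bacterial products induce classical activation, for which Nos2 is the standard mouse marker. Cd163, Folr2 and Mrc1 are also used for macrophages resident in tissues, and Trem2 for macrophages that take up lipid in tumours and in fat. Several of these genes are expressed outside macrophages as well: Arg1 and Nos2 in other myeloid cells and some epithelia, Chil3 in neutrophils and Mgl2 in dendritic cells.

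The samples were mammary tumours of the mouse strain that the labels write as Balbc, all with the genotype p53-NULL, so the deletion of the tumour suppressor p53 was shared by every group. Of the 4 transplantable models, 2208L gave 8 samples, 2151R gave 4, 2225L gave 2 and T11 gave 1. The titles divided 2208L into 4 samples marked PBS (a buffered saline), 3 marked 3day nt and 1 marked ROSEN. The titles of 2151R carried NT in 2 samples and other codes in the other two. What nt, NT and those codes stand for is not given in the sources used here, nor is the age of the mice. Although the series concerns chemotherapy and the removal of macrophages in breast cancer, no title names a drug or a depleting agent. Replicates were numbered in accession order, so that in 2208L replicate 1 is ROSEN, replicates 2 to 5 are PBS and replicates 6 to 8 are 3day nt. The labels do not say that replicates came from separate animals, and p-values then measure only the spread between these samples, which may be technical.

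Each value is a log2 level of a gene relative to a reference level of the same gene that the authors did not define in the sources used here. A value of 0 is that reference. Differences between samples are given in log2 units and not as linear folds, because an offset added before the logarithm, if any, is not given either. Levels of different genes cannot be ranked on this scale. The table holds no counts, so the sequencing depth is unknown. The tumours held macrophage transcripts, and the mean of 12 macrophage identity genes (Csf1r, Adgre1, Cd68 and others) ran from 0.36 to 0.75 in 2151R, was 1.01 in T11, ran from -0.65 to 0.02 in 2208L and was -2.0 and -0.87 in 2225L. Because these are whole tumours, fewer macrophages and less RNA of a gene in each macrophage cannot be told apart. Markers of other tissues varied as well. The mean of 8 skeletal muscle genes was 6.94 in 2151R replicate 3 and 10.70 and 10.20 in 2208L replicates 6 and 8, while it ran from -3.85 to 2.95 in the other 12 samples.

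**Figure D1:**
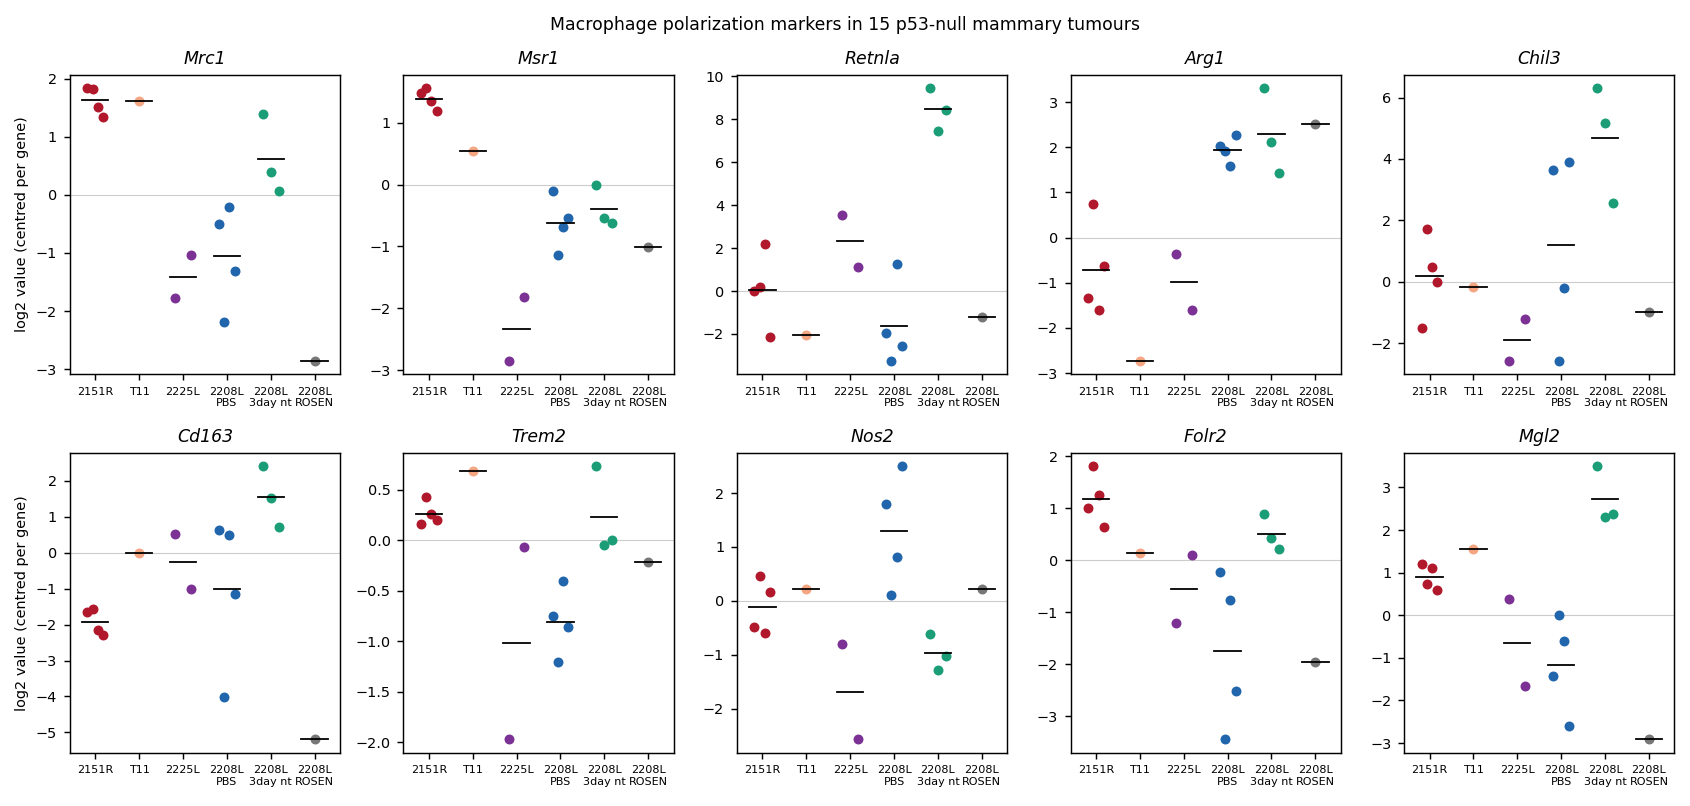
Log2 value (vertical axis, centred per gene) of each of the 10 genes in the 15 tumours, 1 panel per gene, with 1 point per tumour and a line at the mean of each model or title subset (horizontal axis). Retnla stands between 7.48 and 9.46 in the 3 samples of 2208L 3day nt, and Arg1 is at 1.43 or more in all 8 samples of 2208L.

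The genes called higher in 2151R than in 2208L were the receptors Mrc1, Msr1 and Folr2, and the one called lower was Arg1. Mrc1 encodes the mannose receptor, which binds and internalizes glycoproteins, and lies on chromosome 2 (chr2:14229392-14332057, GENCODE annotation of GRCm38, plus strand). It was 1.84, 1.83, 1.51 and 1.35 in replicates 1 to 4 of 2151R, 1.61 in T11, and -1.78 and -1.03 in 2225L. In 2208L it was -2.85 in ROSEN, -0.50, -2.18, -0.21 and -1.30 in the PBS samples, and 1.39, 0.39 and 0.07 in the 3day nt samples. The lowest 2151R sample and the highest 2208L sample, which is a 3day nt sample, overlapped, while both 2225L samples lay below all of 2151R. The difference between 2151R and 2208L was 2.28 (SE 0.64) with an adjusted p of 0.0099, from limma with Benjamini-Hochberg adjustment over all 17271 genes. The same test gave -3.04 (SE 0.91, adjusted p = 0.014) for 2225L minus 2151R. Without 2225L replicate 1 the latter was -2.66 and its adjusted p was 0.089. Of the 2225L samples, replicate 1 has the library prefix CP and replicate 2 the prefix ROSEN, and with prefix as a covariate the difference was -2.37 (adjusted p = 0.065).

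Msr1, the class A scavenger receptor for modified lipoproteins (chr8:39581685-39642673, minus strand), showed the clearest order of models. Its values were 1.47, 1.56, 1.35 and 1.18 in 2151R and 0.53 in T11. In 2208L they were -1.01 in ROSEN, -0.10, -1.14, -0.69 and -0.55 in PBS and 0.00, -0.54 and -0.63 in 3day nt. In 2225L they were -2.85 and -1.82. Groups of samples from 2151R, 2208L and 2225L did not overlap in any pair. Msr1 was higher in 2151R than in 2208L by 1.97 (SE 0.24, adjusted p = 1.44e-05), lower in 2225L than in 2208L with a difference of -1.75 (SE 0.31, adjusted p = 0.00079), and lower in 2225L than in 2151R with a difference of -3.72 (SE 0.33, adjusted p = 1.37e-06). After subtraction of the macrophage identity mean described further on, the call for 2225L against 2208L was lost (adjusted p = 0.051). PBS and 3day nt samples of 2208L overlapped, with a difference of 0.23 (95% interval -0.42 to 0.88, adjusted p = 0.53).

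Folr2 encodes folate receptor beta (chr7:101839988-101857194, minus strand). Its gene overlaps the antisense gene Gm10602 and the pseudogene Gm45319 on the other strand, and whether the counting used strand is not given in the sources used here, so its values carry that uncertainty. They were 1.01, 1.80, 1.25 and 0.64 in 2151R, 0.14 in T11, and -1.20 and 0.10 in 2225L. In 2208L they were -1.96 in ROSEN, -0.23, -3.43, -0.77 and -2.51 in PBS and 0.88, 0.43 and 0.21 in 3day nt. As for Mrc1, the 3day nt samples were the upper end of 2208L, and replicate 6 overlapped 2151R. The difference between 2151R and 2208L was 2.10 (SE 0.73, adjusted p = 0.030). That call did not hold without 2151R replicate 1, 2 or 3, when the adjusted p was 0.059, 0.084 and 0.064. The mean of 8 adipocyte genes ran from 2.04 to 5.48 in 2151R and from -3.11 to 3.16 in 2208L. With that mean as a covariate, neither Mrc1 (1.22, adjusted p = 0.099) nor Folr2 (0.69, adjusted p = 0.31) passed, while Msr1 and Arg1 still did, and Retnla was called lower in 2151R. In that fit 25.2% of all genes were called higher and 25.8% lower.

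Cd163, the receptor that clears haptoglobin-bound haemoglobin (chr6:124304656-124330527, plus strand), did not follow the other receptors. It was -1.64, -1.57, -2.16 and -2.29 in 2151R, 0.00 in T11, and 0.52 and -1.02 in 2225L. Within 2208L it stood at -5.18 in ROSEN, 0.63, -4.03, 0.50 and -1.13 in PBS and 2.40, 1.52 and 0.72 in 3day nt. The 2208L samples covered the whole span of the other models, and 2151R lay below both 2225L samples. No model comparison passed the test, and 2151R minus 2208L was -1.35 (95% interval -4.00 to 1.31, adjusted p = 0.39).

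Mgl2, a lectin for galactose-type sugars (chr11:70130329-70137550, plus strand), was 1.2, 0.72, 1.12 and 0.58 in 2151R, 1.55 in T11, and 0.39 and -1.67 in 2225L. Values in 2208L were -2.90 in ROSEN, -1.42, 0.00, -0.60 and -2.60 in PBS and 3.49, 2.30 and 2.37 in 3day nt. The 2151R samples lay between the 2 main subsets of 2208L, above every PBS sample and below every 3day nt sample. With 2208L as 1 group the difference was 0.83 (95% interval -1.57 to 3.23, adjusted p = 0.56).

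Trem2, a lipid-sensing receptor that signals through Tyrobp (chr17:48346401-48354147, plus strand), had the narrowest spread of the 10 genes in 2151R. It was 0.16, 0.43, 0.26 and 0.20 there, 0.68 in T11, and -1.97 and -0.07 in 2225L. In 2208L it was -0.22 in ROSEN, -0.75, -1.21, -0.41 and -0.86 in PBS and 0.73, -0.05 and 0.00 in 3day nt. The 3day nt sample replicate 6 exceeded all 2151R samples, and 2151R minus 2208L was 0.61 (95% interval -0.18 to 1.40, adjusted p = 0.19). For 2225L minus 2151R it was -1.28 (adjusted p = 0.055) with no overlap of the groups.

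The pair of enzymes that compete for arginine differed from each other. Arg1, which splits arginine into ornithine and urea (chr10:24915221-24927484, minus strand), was -1.35, 0.74, -1.61 and -0.62 in 2151R, -2.72 in T11, and -0.36 and -1.61 in 2225L. Within 2208L it stood at 2.52 in ROSEN, 2.03, 1.91, 1.58 and 2.26 in PBS and 3.31, 2.12 and 1.43 in 3day nt. All 8 samples of 2208L lay above all 7 samples of the other models. The difference was -2.86 (SE 0.44, adjusted p = 0.00013) for 2151R minus 2208L and -3.13 (SE 0.57, adjusted p = 0.0010) for 2225L minus 2208L. Epithelial genes were lower in 2151R as well, where 5 of 6 were called lower and 1 higher, with a median of -3.96 beside 0.10 for all genes. Epcam, an epithelial adhesion molecule, had a difference of -6.58 and the keratin gene Krt8 one of -6.27. The epithelial mean ran from -3.27 to -2.32 in 2151R and from -0.24 to 1.14 in 2208L, and was -7.51 in T11 and 2.72 and 2.82 in 2225L. For 2225L minus 2208L, 2 of the 6 epithelial genes were called higher, Krt14 and Krt5, and 0 lower, against 15.6% and 17.3% of all genes. The median of the 6 was 0.43, beside -0.044 for all genes, and the highest difference was 9.81. Of 7 neutrophil genes (median -1.82) 3 were called lower in 2151R and 0 higher, with S100a8 at -2.51 and Ltf at -2.37. The neutrophil mean ran from -0.83 to 0.29 in 2151R and from -0.52 to 2.98 in 2208L, and was -1.20 and -1.85 in 2225L. Of all genes 22.7% were called lower in 2151R. The part of epithelial cells and neutrophils in the Arg1 values was not tested.

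Arg1 took the opposite order to Mrc1 between 2151R and 2208L, although both are standard markers of alternative activation. Between 2225L and 2151R the difference was -0.27 (95% interval -1.62 to 1.07, adjusted p = 0.74).

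Nos2, the inducible enzyme that makes nitric oxide from arginine (chr11:78920787-78960254, plus strand), was -0.49, 0.46, -0.60 and 0.17 in 2151R, 0.22 in T11, and -0.81 and -2.56 in 2225L. Values in 2208L were 0.23 in ROSEN, 1.79, 0.12, 0.81 and 2.49 in PBS and -0.62, -1.28 and -1.02 in 3day nt. Both 2225L samples lay below 2151R, and 2208L spanned the 2151R values. None of the 3 model comparisons passed the test. The smallest adjusted p was 0.088, for a difference of -2.0 (SE 0.85) between 2225L and 2208L.

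Retnla and Chil3 encode secreted proteins. Retnla, also known as Fizz1 or RELM-alpha (chr16:48842551-48844461, plus strand), was 0.00, 0.18, 2.20 and -2.16 in 2151R, -2.06 in T11, and 3.53 and 1.12 in 2225L. In 2208L it was -1.20 in ROSEN, -1.95, -3.24, 1.24 and -2.56 in PBS and 9.46, 7.48 and 8.45 in 3day nt. No sample outside 3day nt exceeded 3.53. Chil3, the chitinase-like protein Ym1 (chr3:106147554-106167564, minus strand), was -1.49, 1.70, 0.50 and 0.00 in 2151R, -0.16 in T11, and -2.56 and -1.21 in 2225L. Within 2208L it stood at -0.99 in ROSEN, 3.65, -2.56, -0.21 and 3.90 in PBS and 6.30, 5.16 and 2.55 in 3day nt. The value -2.56 in 2225L replicate 1 and in 2208L replicate 3 was exactly the same number. That number was the lowest Chil3 value of the 15 samples. What such a repeated value stands for is not given, and it was used as deposited. Neither gene passed the test between models in the fit without covariates. Retnla had a difference of -2.16 (95% interval -7.50 to 3.19, adjusted p = 0.50) and Chil3 one of -2.05 (95% interval -5.23 to 1.13, adjusted p = 0.27) for 2151R minus 2208L. With the adipocyte mean as a covariate, the Retnla difference was -6.50 and was called (adjusted p = 0.023). For 2225L minus 2208L, Chil3 differed by -4.11 in the fit without covariates (95% interval -8.22 to -0.0050, adjusted p = 0.12), and those groups overlapped.

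For 2151R minus 2208L, 3 of the 10 genes were called higher and 1 lower. Of all genes in the table, 26.1% were called higher and 22.7% lower, so these counts lie near the background. Groups did not overlap for 2 of the 10 (Arg1 and Msr1), against 38.8% of all genes. The median difference of the 10 genes was 0.089 and that of all genes 0.10. For 2225L minus 2208L, 2 were called lower and 0 higher, against 17.3% and 15.6% of all genes, with medians of -0.74 and -0.044. For 2225L minus 2151R, 2 were called lower and 0 higher, against 25.8% and 22.8%, with medians of -1.56 and -0.10. In both comparisons 0 genes were higher at an unadjusted p under 0.05 in limma. The 2225L and 2151R samples did not overlap for 7 of the 10, against 62.4% of all genes, which is a large share because 2225L has only 2 samples. The 3 comparisons share samples and are not independent of each other.

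**Figure D2:**
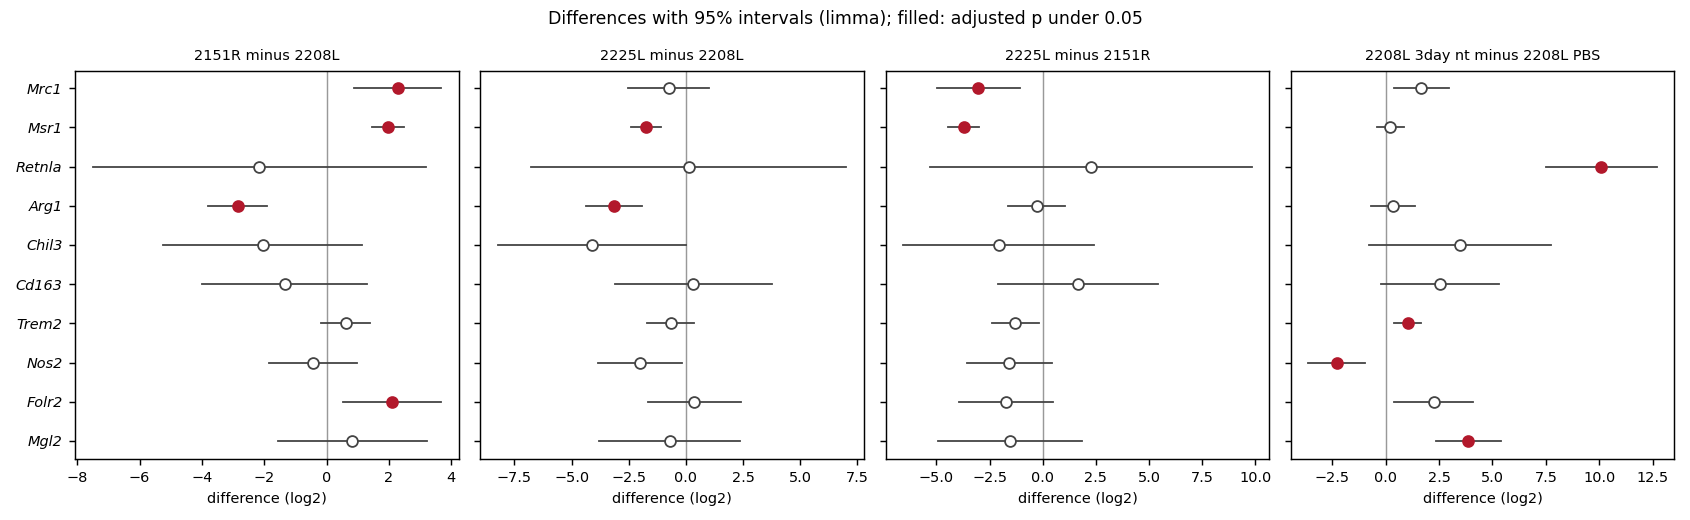
Difference in log2 value for each of the 10 genes with its 95% interval from limma, in 1 panel per comparison with its own horizontal range. Filled red points passed the adjusted p of 0.05. Retnla is at 10.09 for 2208L 3day nt minus PBS.

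Within 2208L, the secreted marker Retnla and the lectin Mgl2 were much higher in the 3day nt samples than in the PBS samples, and Trem2 was moderately higher. Nos2 was lower. Retnla was higher by 10.09 (SE 1.09, 95% interval 7.48 to 12.69, adjusted p = 0.0031), with all 3 of the 3day nt samples above all 4 PBS samples. The call remained when any 1 of the 7 samples was left out, with differences from 9.55 to 11.04. Mgl2 was higher by 3.87 (SE 0.64, 95% interval 2.34 to 5.40, adjusted p = 0.0076) and likewise stayed called in each of these fits. Trem2 was higher by 1.03 (SE 0.26, adjusted p = 0.025). Trem2 lost its call without replicate 2, 3, 6 or 8, with adjusted p from 0.058 to 0.070, and in a fit of all 15 samples with 6 means (adjusted p = 0.066). Nos2 fell by 2.27 on the log2 scale (SE 0.56, adjusted p = 0.023) and lost its call without replicate 2, 6, 7 or 8, with adjusted p from 0.053 to 0.079.

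The receptors Mrc1, Folr2, Cd163 and Msr1 had higher means in 3day nt without passing the test. Mrc1 had a difference of 1.67 (95% interval 0.38 to 2.96, adjusted p = 0.053), Folr2 one of 2.24 (0.39 to 4.10, adjusted p = 0.064) and Cd163 one of 2.56 (-0.21 to 5.32, adjusted p = 0.13). In each of these 3 genes the 3day nt samples lay above all PBS samples, whereas Msr1 overlapped. In the fit of all 15 samples with 6 means, Mrc1 (adjusted p = 0.023) and Folr2 (adjusted p = 0.034) passed. Chil3 overlapped, with a difference of 3.48 (95% interval -0.77 to 7.73, adjusted p = 0.17). Arg1 differed by 0.34 (95% interval -0.68 to 1.36, adjusted p = 0.55), so the interval leaves room for a change of about 1 log2 unit. In total 3 of the 10 genes were called higher and 1 lower, against 16.5% and 17.4% of all genes. The groups did not overlap for 7 of the 10, against 44.8% of all genes. The median difference was 1.95 for the 10 genes and 0.047 for all genes.

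Markers of fat and muscle also differed between the 2208L samples. The mean of 8 adipocyte genes ran from 2.76 to 3.16 in 3day nt and was -2.06, -3.11, 3.06 and -2.83 in the PBS samples. The mean of 8 skeletal muscle genes was 10.70, 2.03 and 10.20 in 3day nt and 2.95, 2.34, -3.01 and -2.31 in PBS. In a limma fit with the muscle mean as a covariate 0 of the 10 genes were called, but only 0.127% of all genes were called higher and 0.353% lower there. Leaving out the muscle-rich samples also gave 0 calls, against 0.127% higher and 0.44% lower of all genes, with 1 sample of 3day nt left that was assumed to vary like the PBS samples. In those fits Retnla differed by 10.36 (adjusted p = 0.077) and 9.10 (adjusted p = 0.11), and Mgl2 by 3.13 (adjusted p = 0.17) and 3.45 (adjusted p = 0.18), beside 10.09 and 3.87 with all samples and no covariate. At an unadjusted p under 0.05 the muscle covariate left Retnla and Mgl2 higher and Nos2 lower. Without the muscle-rich samples the same 3 genes passed that unadjusted level. With the adipocyte mean as a covariate, Retnla remained called at 7.23 (adjusted p = 0.021) and Mgl2 was 3.38 (adjusted p = 0.11). There 0.22% of all genes were called higher and 0.579% lower. That covariate left Retnla and Mgl2 higher at an unadjusted p under 0.05 and 0 genes lower, so Nos2 did not pass that level. PBS replicate 4 had an adipocyte mean within the 3day nt range. Its Retnla, at 1.24, was the highest of the PBS samples (-1.95, -3.24 and -2.56 in the others), and its Mgl2 was -0.60. Replicate 7 of 3day nt had a muscle mean below PBS replicates 2 and 3. Its Retnla, at 7.48, and its Mgl2, at 2.30, were the lowest of 3day nt. The part of fat and muscle tissue in the Retnla and Mgl2 values was not tested.

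Retnla, Mgl2 and Trem2 were the genes called higher in 3day nt, and their promoter windows are shown because they carry that comparison. The windows are from RefSeq (GRCm38.p6), 250 bases before to 50 bases after the annotated start, 300 bases each, written 5′ to 3′ on the strand of the gene. Capitals mark matches to short motifs on either strand. The STAT6-type motif searched was TTCNNNNGAA. The other motif of the STAT family was TTCNNNGAA, with a shorter gap. The PU.1-type motif was GAGGAA, the C/EBP-type motif was TTGCNNAA, and the motif of the TATA box type was TATAAA.
Retnla, chr16:48842359-48842658: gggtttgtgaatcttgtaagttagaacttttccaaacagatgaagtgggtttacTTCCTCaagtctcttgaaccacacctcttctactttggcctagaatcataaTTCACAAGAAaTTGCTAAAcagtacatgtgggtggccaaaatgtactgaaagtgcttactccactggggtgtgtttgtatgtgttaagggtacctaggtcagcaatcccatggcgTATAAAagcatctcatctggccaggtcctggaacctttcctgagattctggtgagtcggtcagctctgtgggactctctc
Mgl2, chr11:70130107-70130406: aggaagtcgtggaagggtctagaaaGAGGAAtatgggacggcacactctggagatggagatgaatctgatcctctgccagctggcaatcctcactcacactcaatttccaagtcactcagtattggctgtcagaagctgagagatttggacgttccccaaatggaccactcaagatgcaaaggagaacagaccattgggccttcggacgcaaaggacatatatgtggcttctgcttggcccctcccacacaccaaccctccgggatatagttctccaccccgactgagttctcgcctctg
Trem2, chr17:48346151-48346450: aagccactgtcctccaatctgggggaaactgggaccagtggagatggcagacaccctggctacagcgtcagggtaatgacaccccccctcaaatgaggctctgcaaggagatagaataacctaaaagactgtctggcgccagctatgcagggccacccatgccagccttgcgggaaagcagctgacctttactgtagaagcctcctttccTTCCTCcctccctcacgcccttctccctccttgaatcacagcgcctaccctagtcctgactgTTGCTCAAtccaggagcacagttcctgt
The Retnla window holds the PU.1-type letters on the other strand, from base -196 relative to the start, and its STAT6-type match TTCACAAGAA begins at base -145. It is followed by the C/EBP-type match TTGCTAAA at -134 and by a TATA box-type match at -30. The Mgl2 window holds the PU.1-type letters GAGGAA, and the Trem2 window holds the PU.1-type letters on the other strand and the C/EBP-type match TTGCTCAA. Of all 32851 windows in the RefSeq table, 6.95% held the STAT6-type letters, 8.3% the STAT-type, 28.3% the PU.1-type, 10.8% the C/EBP-type and 13.6% the TATA box-type. Among the 7 of the 10 genes with a window, Retnla was the one with STAT6-type letters and Chil3 the one with STAT-type letters. PU.1-type letters were in 4 of the 7, among them Mrc1, which was not called between 3day nt and PBS. These matches describe the letters and do not show binding.

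Because 2208L held both subsets, each was also set against the other models in a fit with 6 means. Against PBS alone, 2151R was higher for 5 of the 10 genes: Mrc1 by 2.68, Msr1 by 2.01, Trem2 by 1.07, Folr2 by 2.91 and Mgl2 by 2.06. It was lower for Arg1, with a difference of -2.65, and for Nos2, with a difference of -1.42 (adjusted p = 0.041). Against 3day nt alone, 2151R was higher for Msr1, by 1.78, and lower for 5 genes. Their differences were -8.41 for Retnla, -3.0 for Arg1, -4.50 for Chil3, -3.47 for Cd163 and -1.81 for Mgl2. Of all genes, 27.5% were called higher and 22.9% lower against PBS, and 27.7% and 27.1% against 3day nt. Msr1 and Arg1 were called in the same direction against either subset, and Mgl2 was called in opposite directions. In the same fit 2225L was higher than PBS for 1 gene, Retnla, by 3.95 (adjusted p = 0.031). It was lower than PBS for 3 genes, with differences of -1.71 for Msr1, -2.93 for Arg1 and -2.98 for Nos2 (adjusted p = 0.0030). Of all genes 23.1% were called higher and 24.9% lower there. Against 3day nt, 2225L was called higher for 0 genes and lower for 6 of the 10. Their differences were -2.02 for Mrc1, -1.94 for Msr1, -6.14 for Retnla, -3.27 for Arg1, -6.56 for Chil3 and -3.36 for Mgl2, with adjusted p from 0.0014 to 0.016, and 15.9% of all genes were called higher and 19.8% lower. Retnla was thus called in opposite directions against the 2 subsets.

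The mean of the macrophage identity genes was then subtracted from each gene in each sample, which shows a marker relative to those genes in its own tumour. The part of other cells in that mean was not tested. On that scale Mrc1 was 1.08 ± 0.07 (SD, n = 4) in 2151R, -0.75 ± 0.64 (n = 4) in 2208L PBS and 0.82 ± 0.51 (n = 3) in 3day nt. Msr1 was 0.84 ± 0.06 (SD, n = 4) in 2151R, -0.31 ± 0.31 (n = 8) in 2208L, and -0.96 and -0.85 in 2225L. This subtraction shifted the median difference of all genes to -0.72 for 2151R minus 2208L, where 7.23% of all genes were called higher and 48.6% lower. Both Mrc1 and Msr1 remained higher in 2151R than in 2208L by the same limma test, while Folr2 did not, with a difference of 1.27 (adjusted p = 0.097). Arg1 was -1.26 ± 0.97 (SD, n = 4) in 2151R and 2.42 ± 0.61 (n = 8) in 2208L, and it remained lower in 2151R. In 2225L Folr2 was 0.88 ± 0.12 (SD, n = 2), and Trem2 0.41 ± 0.54 (n = 2), where the values as deposited were below 0 on average. The identity mean of 2225L averaged -1.43, so the subtraction raised every gene there. It moved the median difference of all genes to 1.11 for 2225L minus 2208L and to 1.88 for 2225L minus 2151R. Between 3day nt and PBS the subtraction left 5 genes called higher: Retnla, Mgl2, Trem2, Mrc1 (1.57, adjusted p = 0.025) and Folr2 (2.14, adjusted p = 0.034). Of all genes 9.85% were called higher and 12.8% lower. The identity mean itself was -0.34 to 0.02 in 3day nt and -0.65 to 0.02 in PBS.

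**Figure D3:**
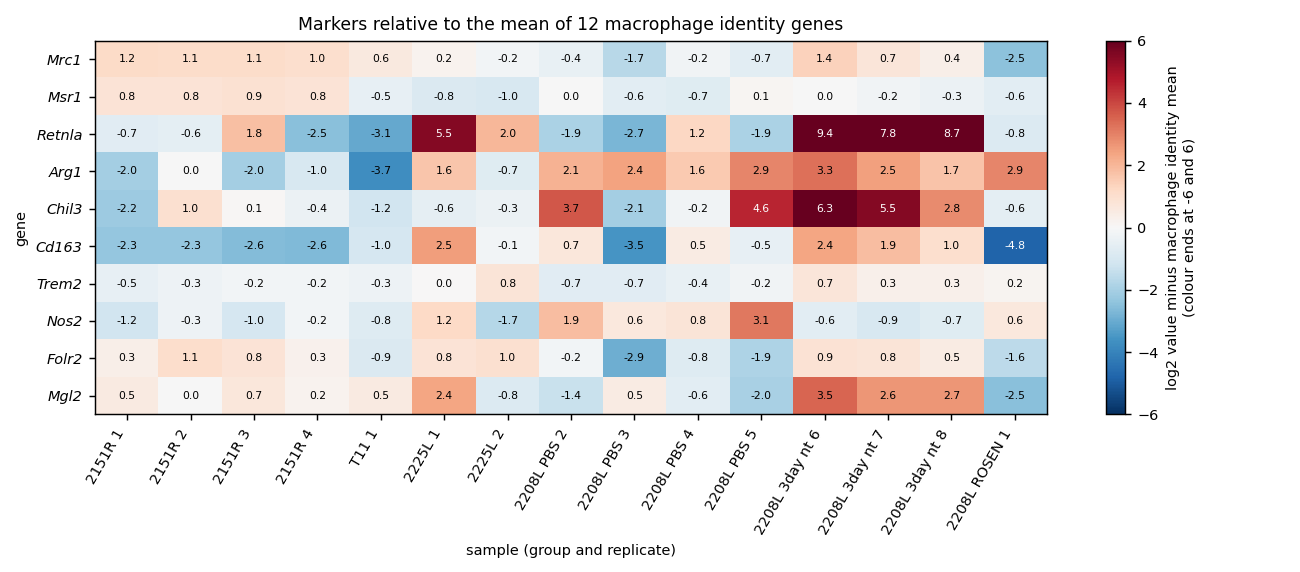
Heat map of each of the 10 genes (rows) minus the mean of the 12 macrophage identity genes in the same tumour (columns), in log2 units, with colours ending at -6 and 6. Arg1 runs from 1.56 to 3.29 in the 2208L samples and from -2.03 to -0.01 in 2151R.

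T11 has 1 sample and no test. It lay above all 2208L samples for Mrc1 and Msr1 and below them for Arg1. It exceeded the 4 samples of 2151R for Cd163, Trem2 and Mgl2, and lay below them for Msr1, Arg1 and Folr2. Against both 2225L samples it was above for 7 genes and below for Retnla and Arg1. Of all samples T11 had the lowest Arg1, at -2.72, and the highest macrophage identity mean, at 1.01.

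Other genes of these programmes were read from lists of known markers. For 3day nt minus PBS, 4 of 13 further alternative activation genes were called higher and 1 lower, where 16.5% of all genes were called higher and 17.4% lower. Pdcd1lg2, which encodes the checkpoint ligand PD-L2, was higher by 4.11 (SE 0.47, adjusted p = 0.0035), and the chemokine gene Ccl22 by 2.96 (SE 0.46, adjusted p = 0.0065). Pdcd1lg2 was 4.88, 3.95 and 3.58 in 3day nt and -0.94, -0.07, 0.38 and 0.72 in PBS. Ccl17 and Ccl24 were the other genes called higher, and Stat6 was called lower with a difference of -0.47. The receptor chain Il4ra was not called, with a difference of 0.28 (adjusted p = 0.41), and the cytokine genes Il4 and Il13 were not rows of the table. Of 14 classical activation genes, 6 were called, each of them higher, with Il6 higher by 2.30 (adjusted p = 0.019) and Cxcl10 by 1.12 (adjusted p = 0.025), while Nos2 itself was lower. The median difference was 0.70 for the alternative and 0.40 for the classical activation list, beside 0.047 for all genes. Of 11 resident-like macrophage genes (median 0.74) 3 were called, each of them higher, led by the chemokine gene Ccl8 at 4.60 (adjusted p = 0.0083) and Cbr2 at 2.70 (adjusted p = 0.041). Of 12 identity genes (median 0.12) 2 were called higher (Aif1, C1qa) and Mertk lower, which is near the share of all genes. Of 9 arginine metabolism genes (median 0.28) 1 was called, the arginine transporter gene Slc7a1 at -0.71 (adjusted p = 0.021), a share below that of all genes called lower.

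For 2151R minus 2208L, where 26.1% of all genes were called higher and 22.7% lower, the lists had different counts. Resident-like macrophage genes had a median difference of 2.22, beside 0.10 for all genes, and 7 of 11 were called, each of them higher, with Lyve1, a hyaluronan receptor, higher by 3.20 (SE 0.88, adjusted p = 0.0087) and Fcna, a ficolin, by 3.02 (SE 0.80, adjusted p = 0.0070). Lyve1 and Stab1, another of the 7, are also expressed in endothelium. Endothelial, fibroblast and mast cell genes were higher in 2151R too. Of 5 endothelial genes (median 1.40) 5 were called higher, with Tek at 1.52 and Cdh5 at 1.52, and the endothelial mean ran from 0.35 to 0.92 in 2151R and from -1.38 to 0.04 in 2208L. Of 6 fibroblast genes (median 1.76) 3 were called, each of them higher, with the proteoglycan gene Dcn at 3.56, and the fibroblast mean ran from 0.85 to 2.37 in 2151R and from -2.0 to 1.75 in 2208L. Of 5 mast cell genes (median 5.32) 4 were higher, with the protease gene Cpa3 at 5.66, and 1 was lower, and the mast cell mean ran from 2.29 to 2.92 in 2151R and from -3.63 to 1.44 in 2208L. The part of these cells in the values of Mrc1, Folr2 and the resident-like genes was not tested. Of 12 identity genes (median 0.76) 7 were called, each of them higher, with the lysosomal protein gene Cd68 higher by 1.83 (SE 0.19, adjusted p = 3.92e-06). Of the 13 alternative activation genes (median 0.92), 3 were higher and 4 lower, which is near the shares of all genes, with Klf4 higher by 2.36 and Ccl17 lower with a difference of -3.65 (adjusted p = 0.0033). Classical activation genes (median -0.42) had 2 of 14 higher and 4 lower, and Il23a, a subunit of interleukin 23, stood at -6.54 (adjusted p = 3.52e-08). Of 11 lipid-associated macrophage genes (median 0.39), 3 were higher and 2 lower, the latter being Spp1 (osteopontin, -3.65) and Fabp5 (-3.44), which tumour cells can also express. These counts too are near the shares of all genes. Around Arg1, 3 of 9 arginine genes (median -0.57) were higher and 5 lower. Ass1, which rebuilds arginine from citrulline, had a difference of -3.53 (adjusted p = 9.02e-08), and Arg2, the mitochondrial arginase, one of -1.81 (adjusted p = 0.00019). Of 5 genes of polarizing cytokines and their receptors (median 0.61), 1 was called higher and 2 lower. The growth factor gene Csf1 was higher by 1.64 (adjusted p = 2.65e-05), and the cytokine gene Tslp was lower with a difference of -1.40 (adjusted p = 0.0067). For 2225L minus 2208L, 7 of 12 identity genes (median -1.06) and 8 of 14 classical activation genes (median -1.19) were called, each of them lower, beside a median of -0.044 for all genes, of which 17.3% were called lower.

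Markers of other cells that express some of the 10 genes also differed. In 3day nt, 5 of 7 neutrophil genes (median -2.06) were called, each of them lower than in PBS, with S100a9 at -2.18 (adjusted p = 0.032) and Cxcr2 at -2.06 (adjusted p = 0.011). Of all genes 17.4% were called lower and 16.5% higher, with a median of 0.047. The neutrophil mean was -0.52 to 0.61 in 3day nt and 1.14 to 2.98 in PBS, and Nos2 was lower in 3day nt too. In 2151R, another model, the neutrophil mean ran from -0.83 to 0.29, which overlapped 3day nt. Nos2 ran from -0.60 to 0.46 there and from -1.28 to -0.62 in 3day nt. Of 7 dendritic cell genes 4 were called in 3day nt against PBS, each of them higher. Cd209a, a lectin of monocyte-derived dendritic cells, was at 5.01 (SE 1.34, adjusted p = 0.030). Cd209a was 4.84, 3.78 and 3.46 in 3day nt and -0.06, -2.35, 2.14 and -3.67 in PBS. For eosinophils, the 2 genes in the table went in opposite directions, Ear2 at 4.55 (adjusted p = 0.0019) and Siglecf at -1.30 (adjusted p = 0.012). The part of these cells in the values of Retnla, Mgl2 and Nos2 was not tested.

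**Figure D4:**
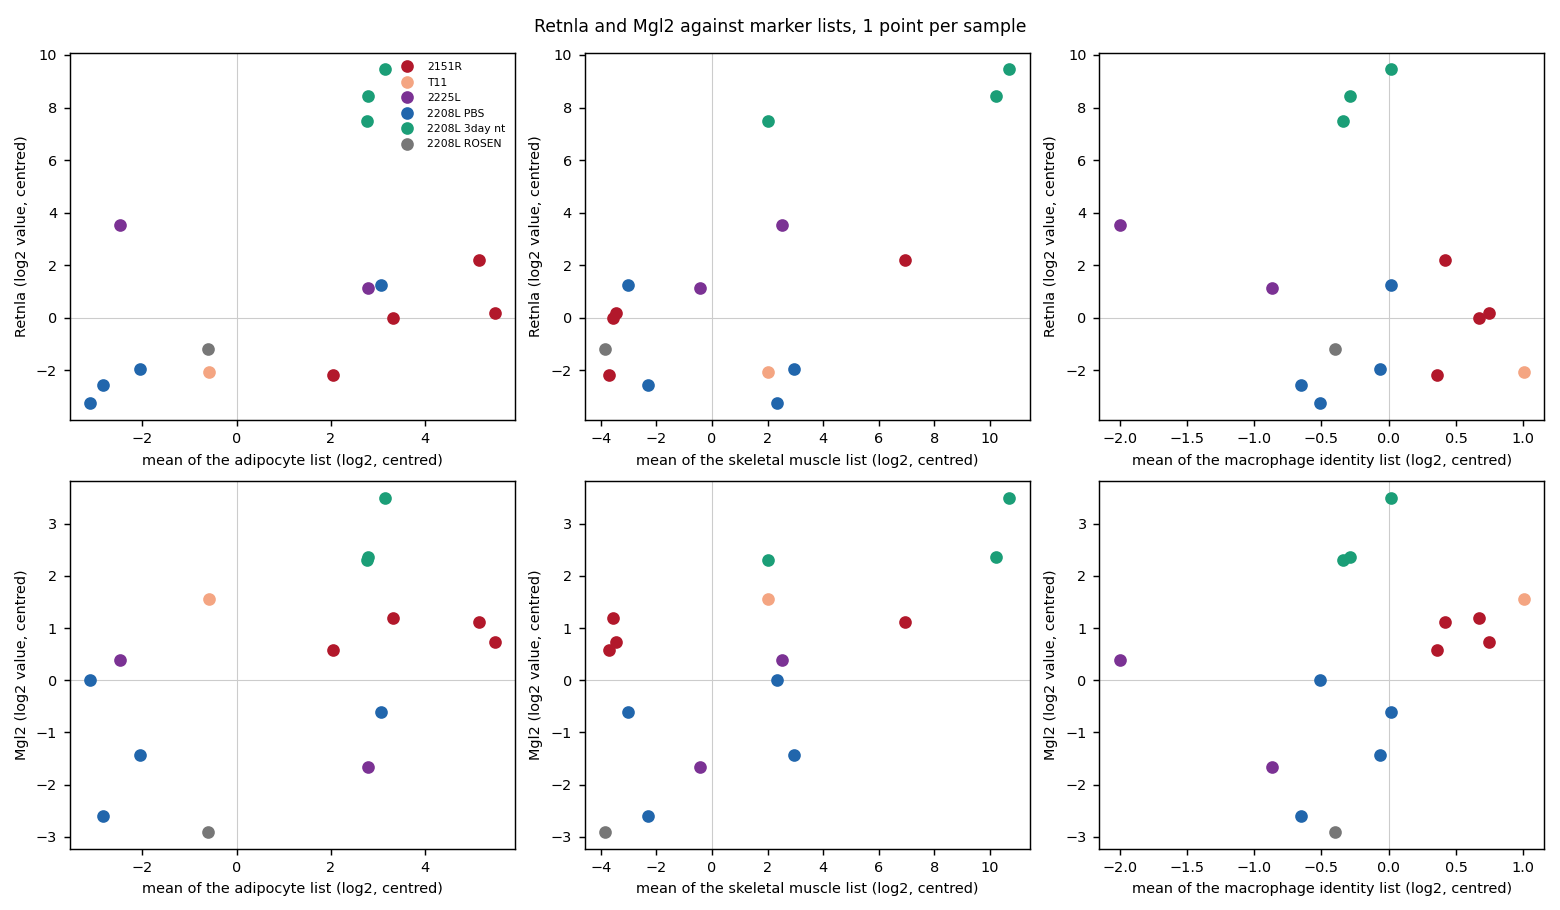
Log2 value of Retnla (upper row) and Mgl2 (lower row) against the mean of the adipocyte, skeletal muscle and macrophage identity lists (log2, columns), with 1 point per tumour coloured by group. PBS replicate 4, with an adipocyte mean of 3.06, has Retnla at 1.24, the highest of PBS. The 3day nt replicate 7, with a muscle mean of 2.03, has Retnla at 7.48, the lowest of 3day nt.

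Several of the 10 genes have close relatives beside them in the genome. Clec10a, the other member of the Mgl pair, lies 18.6 kb from Mgl2 on chromosome 11. It was 3.66, 1.93 and 2.15 in 3day nt and 0.21, -3.30, 1.88 and -2.31 in PBS, a difference of 3.46 that did not pass (adjusted p = 0.074). Retnlg lies 28.2 kb from Retnla on chromosome 16. It was 3.16, 2.84 and 2.46 in 3day nt and 3.57, 0.00, 0.26 and 3.83 in PBS, a difference of 0.91 (adjusted p = 0.53). The 3day nt values of Retnlg thus lay inside the PBS range, unlike those of Retnla. Retn, which encodes resistin and is on chromosome 8, was higher by 5.02 (SE 1.22, adjusted p = 0.022). It belongs to the adipocyte list too, and was 3.0 in PBS replicate 4, the sample with the high adipocyte mean. Folr1 lies 1.14 kb from Folr2 on chromosome 7 and took the opposite direction between models, at -3.27 (SE 0.45, adjusted p = 5.16e-05) for 2151R minus 2208L. Whether reads were shared between such similar genes depends on counting steps not given in the sources used here. Of 11 family relatives in the table, 3 were called in 2151R against 2208L, each of them lower, and 1 was higher and 2 lower in 3day nt, with Scara5 called lower in both. These counts are near the shares of all genes, which were 22.7% lower in 2151R and 16.5% higher and 17.4% lower in 3day nt. In 2151R 0 relatives were called higher, where 26.1% of all genes were.

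**Figure D5:**
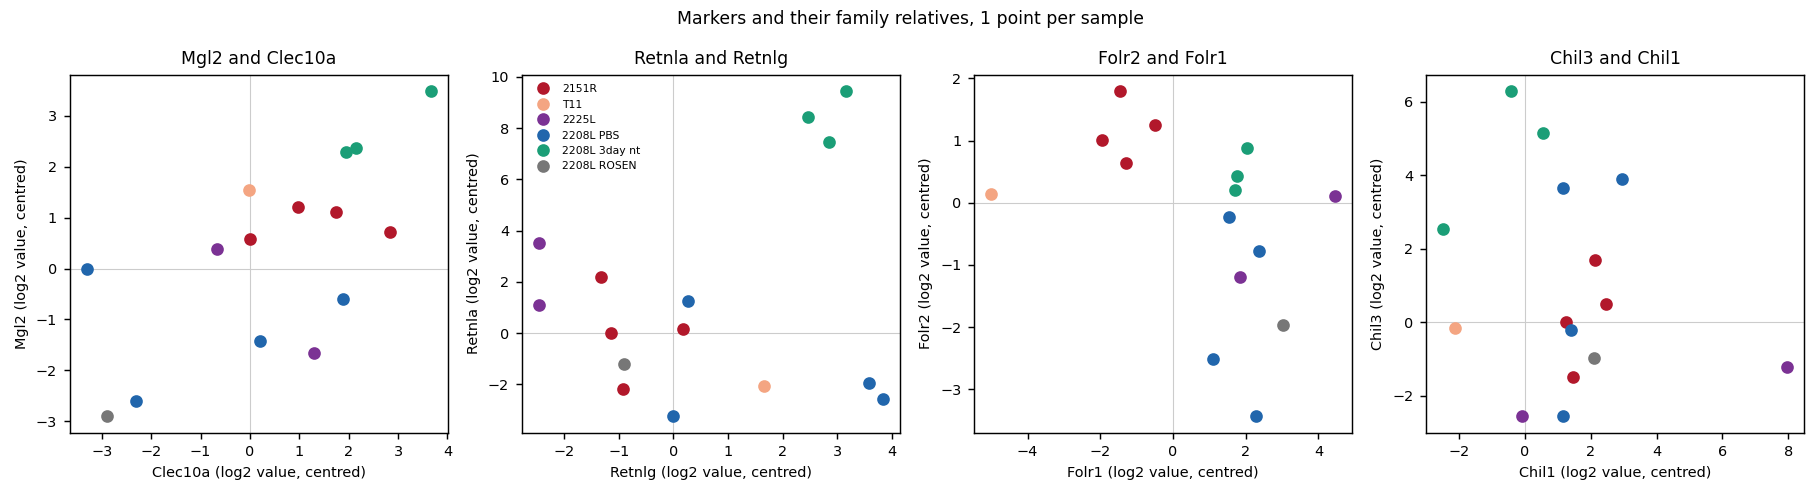
Log2 value of Mgl2, Retnla, Folr2 and Chil3 (vertical axes) against that of the relatives Clec10a, Retnlg, Folr1 and Chil1 (horizontal axes), with 1 point per tumour coloured by group. In 3day nt Retnla is between 7.48 and 9.46 while Retnlg lies between 2.46 and 3.16, inside the PBS range.

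Genes whose values resembled each of the 10 most closely were ranked by Pearson correlation over the 15 samples, among genes without repeated values. For Mrc1 they were Stard8 (r = 0.978), Maf (0.968) and Gm21188 (0.957), and for Msr1 Snx24 (0.986), Aida (0.979) and Rnf19b (0.971). Folr2 was closest to Rgs18 (0.975), Nxpe5 (0.958) and the macrophage receptor gene Timd4 (0.946), and Trem2 to Lrrc25 (0.975), Clec4a2 (0.953) and H2-M3 (0.953). Nos2 was closest to the neutrophil collagenase gene Mmp8 (0.935), Il1a (0.910) and Rgs1 (0.910). Chil3 was closest to Retnlg (0.846), Fcrlb (0.834) and F10 (0.814). For Arg1 they were Snrpn (0.936), 1700010I14Rik (0.919) and Ptprz1 (0.918), and for Retnla Slc51a (0.912), Gm43984 (0.911) and Gm43579 (0.910). Cd163 was closest to Gm20427 (0.846), Gm28370 (0.838) and 2410002F23Rik (0.819), and Mgl2 to Gm44103 (0.929), Czib (0.920) and Mterf3 (0.911). These values rank genes over samples that share models and libraries, and carry no test.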

How the data were processed

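Total RNA came from a Qiagen RNeasy kit and was made into polyA-selected TruSeq libraries, per the labels' protocols. The submitters' processing notes name STAR, Salmon and mm10 without versions or order. The authors deposited 1 table of log2 values centred on each gene's median, for 17271 genes and 15 samples, and the reference samples and the offset before the logarithm are not given in the sources used here. Values were used as deposited. Tests used lmFit and eBayes without trend from limma 3.58.1 (R 4.3.3). Models entered 1 fit of all 15 samples with 4 means, and 3day nt and PBS a fit of those 7 samples. Calls used a Benjamini-Hochberg adjusted p under 0.05 over all genes, with no minimum difference, and the fits were tested on simulated data. Library numbers run in a separate range for each of 2151R, PBS and 3day nt, so group and library range cannot be told apart. Besides the 10 genes, the text names up to 2 called genes with the largest difference in each marker list and the 3 genes most like each of the 10 over the samples; Ccl17, Ccl24, Stat6, Il4ra, C1qa, Stab1, Clec10a and Retnlg were added after their values were seen. The genes and lists were chosen with earlier results of these data known. Alternatives changed scaling, eBayes options, covariates, the samples fitted and the split of 2208L. The adipocyte covariate and leaving out the muscle-rich samples were chosen after seeing the data.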

Additional observations from a re-analysis of the deposited data

How the results depend on the processing

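No paired analysis was possible because the labels tie no sample of one group to a sample of another, and the replicate numbers only name samples. For 2151R minus 2208L, 3 genes were higher and 1 lower. Against 2208L PBS only these became 5 and 2, against 3day nt only 1 and 5, and with the adipocyte covariate 1 and 2. With the samples titled NT, nt or PBS and both 2225L, 1 was higher, Msr1, where 2658 of all 17271 genes were called higher. Mrc1 and Folr2 lost their calls there. For 2225L minus 2208L, 1 was higher against PBS only, 6 were lower against 3day nt only, and 1 was lower after subtracting the macrophage identity mean. For 2225L minus 2151R that subtraction gave 1 higher and 1 lower. In that fit 12183 of all 17271 genes were called higher and 698 lower. The subtraction gave 9531 and 718 of all genes for 2225L minus 2208L. For 2225L minus 2151R, fitting only the samples of the models compared gave 1 higher, where 3695 of all genes were called higher. Leaving out a 2151R replicate gave 2 lower, where 3802 to 4246 of all genes were called lower. Without 2225L replicate 1, which leaves 1 sample of 2225L, the Mrc1 difference was -2.66. For 3day nt minus PBS, 5 were higher after quantile normalization, where 3223 of all genes were called higher, and 5 after subtraction of the identity mean. With the adipocyte covariate 1 was higher and 0 lower, and with the muscle covariate 0 were higher and 0 lower. Without the muscle-rich samples, which leaves 1 sample of 3day nt, Retnla differed by 9.10 and Mgl2 by 3.45. Without a replicate 0 to 1 were lower, where 1362 to 3988 of all genes were called lower.

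Signs changed as follows. For 2151R minus 2208L, Retnla was 1.68 against PBS only, and Nos2 was 0.86 and Mgl2 -1.81 against 3day nt only. Trem2 was -0.21 after subtraction of the identity mean and -0.10 with the adipocyte covariate, which also gave 0.63 for Nos2 and -0.51 for Mgl2. For 2225L minus 2208L, subtraction gave 0.40 for Mrc1, 0.48 for Trem2 and 0.44 for Mgl2, beside a median of 1.11 for all genes. Fitted against 3day nt only, Retnla was -6.14, Cd163 -1.80 and Folr2 -1.06. Mgl2 was 0.52 against PBS only, 0.37 with library prefix and 0.23 without muscle-rich samples. Leaving out each replicate gave -1.09 to 1.32 for Retnla, -0.45 to 1.09 for Cd163, -1.62 to 0.28 for Trem2, -0.28 to 1.02 for Folr2 and -1.74 to 0.31 for Mgl2. For 2225L minus 2151R, subtraction gave 1.71 for Arg1, 0.70 for Trem2, 0.41 for Nos2, 0.26 for Folr2 and 0.43 for Mgl2. All genes had a median of 1.88 in that fit. The samples titled NT, nt or PBS gave 0.13 for Arg1, which ran from -0.90 to 0.35 without a replicate. For 3day nt minus PBS, Arg1 was -0.14 after quantile normalization and -0.17 to 0.77 without a replicate. None of these genes was called in the reported fit of the same comparison. The cause was not tested. Depth is unknown and limits are set by the spread between samples.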
